A study of Mus musculus with 4 samples.

Results

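Cadherins and protocadherins are cell-surface proteins that bind, in the presence of calcium, to copies of themselves or of close relatives on another cell. The 52 genes described here are those of the family, named Cdh followed by a number or Pcdh, with 20 or more unique molecular identifiers (UMIs, each standing for 1 captured RNA molecule) over all barcodes of a single-cell RNA sequencing table of mouse retina. They are 52 of 93 family features, and 52 of the 14266 genes that reach 20 UMIs among 27999 in all. The cells came from C57BL/6 mice aged 3 months that carry Brn3b::GFP, a fluorescent reporter for the retinal ganglion cell (RGC) transcription factor encoded by Pou4f2. Dissociated retinal cells were sorted for GFP, and 3′ libraries were made on droplets. The labels name 4 retinas in 1 group without a treatment, and all barcodes lie in 1 pooled table, so no value has a replicate and no test was run. Intervals below are exact 95% intervals and cover counting error only.

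Classical cadherins (type I, such as Cdh2, and type II, such as Cdh8) carry a cytoplasmic tail that binds catenins and through them actin. Protocadherins lack that tail. The delta-1 and delta-2 protocadherins are each encoded by a gene of their own, whereas the alpha, beta and gamma protocadherins lie in 1 gene cluster in which a neuron switches on a varied subset of first exons or genes. In the retina, type II cadherins are known for matching bipolar cell and RGC partners in the inner plexiform layer, and gamma protocadherins for self-avoidance of starburst amacrine cell dendrites and for neuron survival.

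The members comprised 4 of 5 type I cadherins, 9 of 13 type II cadherins, Cdh13 from 5 other Cdh genes, 4 of 4 delta-1 and 5 of 5 delta-2 protocadherins, Pcdh15 and Pcdh20 from 3 other solitary protocadherins, 4 of 14 alpha, 20 of 22 beta and 3 of 22 gamma features. Just inside the UMI minimum were Cdh1 with 20 UMIs and Pcdhac1 with 25. Just outside were Pcdhga2 and Pcdha12 with 18 each and Cdh9 and Pcdha7 with 17 each.

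Promoter sequence was read for 17 members from the RefSeq table of GRCm38.p6 (20 start sites, each with a window of 300 bases around the start). These windows held a median of 18 CpG dinucleotides, against 7 over all 32851 windows of the table. The 3 shown belong to members whose levels differed several-fold between the RGC sets below, with CpG in capitals. They lie at chrX:133688944-133689243 on the minus strand (Pcdh19), chr5:57717831-57718130 on the plus strand (Pcdh7) and chr14:88471347-88471646 on the minus strand (Pcdh20).
Pcdh19: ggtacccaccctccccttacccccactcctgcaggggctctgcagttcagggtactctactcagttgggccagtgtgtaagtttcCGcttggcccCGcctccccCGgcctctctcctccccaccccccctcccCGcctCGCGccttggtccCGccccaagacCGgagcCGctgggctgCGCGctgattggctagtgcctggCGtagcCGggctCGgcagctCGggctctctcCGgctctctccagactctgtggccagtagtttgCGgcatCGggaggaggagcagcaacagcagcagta
Pcdh7: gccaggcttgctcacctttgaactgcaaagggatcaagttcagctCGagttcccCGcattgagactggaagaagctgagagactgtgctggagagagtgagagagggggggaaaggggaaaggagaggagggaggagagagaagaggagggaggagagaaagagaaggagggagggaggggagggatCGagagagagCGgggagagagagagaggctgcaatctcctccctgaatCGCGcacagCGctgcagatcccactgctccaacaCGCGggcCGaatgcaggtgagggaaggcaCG
Pcdh20: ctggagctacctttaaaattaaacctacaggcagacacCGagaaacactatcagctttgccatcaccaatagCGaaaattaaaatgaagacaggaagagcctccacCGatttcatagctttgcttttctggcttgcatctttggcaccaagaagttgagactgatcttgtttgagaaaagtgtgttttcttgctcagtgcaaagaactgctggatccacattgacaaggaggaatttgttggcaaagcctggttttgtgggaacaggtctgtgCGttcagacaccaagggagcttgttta
The Pcdh19 window held 18 CpGs, the Pcdh7 window 11 and the Pcdh20 window 4. The GC box GGGCGG, on either strand, stood in 7 of 20 member windows, Pcdh19 among them, and in 35.7% of all windows. The T-box letters GGTGTGA and the E-box letters CAGATG each stood in 1 member window, both times that of Cdh7, against 3.98% and 17.2% of all windows, and the forkhead letters TGTTTAC stood in none, against 3.65%. All were searched on both strands, none of the strings contains another, and a match describes the window only.

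In the GENCODE annotation of GRCm38, 29 members lie on chromosome 18, and 2 lie on the X chromosome (Pcdh11x and Pcdh19). All 14 alpha genes and all 21 gamma genes found in that annotation share their last 500 exonic bases with a neighbour, by a median of 100%, since each of these clusters ends in common exons. A 3′ read from there cannot be assigned to 1 gene, so values of single alpha and gamma genes are uncertain. Of 22 beta genes only Pcdhb21 shared its end, over 91% of those bases, and no Cdh or solitary Pcdh gene did. The gene called Pcdhgc4 below carries the symbol Pcdhga8 in the deposited gene table and Pcdhgc4 in GENCODE for the same identifier.

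RGC barcodes were those with 1 or more Slc17a6 UMIs, 3 or more UMIs of Rbpms and Slc17a6 together and at most 1 Lhx1 UMI, and 918 passed, with a median of 15843 UMIs per barcode. Comparison classes were 405 horizontal, 147 amacrine and 354 bipolar barcodes, with medians of 11187, 5619 and 4359.5 UMIs, and 156 microglia barcodes (median 3820) served as a background for free RNA. Before filtering by gene number, mitochondrial share and doublet calls, the gates held 950 RGC, 456 horizontal, 169 amacrine, 696 bipolar and 178 microglia barcodes. The filter thus removed a far larger share of bipolar barcodes than of RGCs. The RGC marker list summed to 8968 UMIs in RGCs after scaling to a total of 1e+06 (counts on this scale are written CPM), against 813, 641 and 257 CPM in horizontal, amacrine and bipolar barcodes, with Slc17a6 at 0 in those classes by the gate. Each class was highest in its own list: 9132 CPM for horizontal, 3184 CPM for amacrine and 18837 CPM for bipolar markers. Amacrine barcodes also carried 1949 CPM of horizontal markers, with an Onecut2 UMI in 15.6% of them. Horizontal barcodes carried 1654 CPM of amacrine markers, with Tfap2b at 940 CPM. Whether horizontal cells were among the amacrine barcodes was not tested. The 3237 barcode names are all distinct and carry 1 suffix, and whether a barcode sequence occurs in more than 1 library cannot be told from them. Of the 156 microglia barcodes 15 also passed the bipolar gate and 1 the amacrine gate. The microglia barcodes also carried 4763 CPM of Müller glia markers and 2188 CPM of bipolar markers. Rod markers summed to 572 CPM in RGCs, against 548 CPM in horizontal, 977 CPM in amacrine and 2283 CPM in bipolar barcodes.

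Gated sets of RGCs were those with 3 or more UMIs of Opn4 (melanopsin, the photopigment of intrinsically photosensitive RGCs; 63 barcodes), 3 or more of Spp1 (osteopontin, a marker of alpha RGCs; 32), 2 or more of Foxp2 (a transcription factor of F-RGCs; 96), 20 or more of Cartpt (a neuropeptide of ON-OFF direction-selective RGCs; 164), 2 or more of Neurod2 (a transcription factor; 101) and 15 or more of Pvalb (a calcium-binding protein; 133). Each was set against all other RGCs. The gates overlap: 24 of the 32 Spp1 RGCs were also Opn4 RGCs, 35 RGCs passed both Cartpt and Neurod2, and 435 RGCs passed none. At the limits, 5 RGCs were at the Opn4 minimum and 10 one UMI below it, 2 and 6 for Spp1, 23 and 33 for Foxp2, 4 and 9 for Cartpt, 20 and 40 for Neurod2 and 7 and 11 for Pvalb. Gates on UMIs favour deep barcodes, and the median was 26504 UMIs in Spp1 and 23385 in Pvalb RGCs, against 13743 in RGCs that passed no gate. A member is called higher or lower where its CPM ratio was 2-fold or more with 30 or more UMIs over both sets, and 44 of 52 members reached that number of UMIs within RGCs.

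All 52 members together made up 981 CPM in RGCs, against 676 CPM in horizontal, 607 CPM in amacrine and 499 CPM in bipolar barcodes. The delta-1 and delta-2 protocadherins each summed to a higher level in RGCs than in any of these classes. The delta-1 sum was 376 CPM in RGCs, against 168 CPM in horizontal, 128 CPM in amacrine and 71.5 CPM in bipolar barcodes. The delta-2 sum was 232 CPM in RGCs, against 80.01 CPM in horizontal, 138 CPM in amacrine and 33.2 CPM in bipolar barcodes. Type I cadherins went the other way against horizontal barcodes, with 116 CPM in RGCs and 253 CPM in horizontal barcodes. The beta cluster sum was 115 CPM (109 to 120) in RGCs, 129 CPM (119 to 140) in horizontal, 117 CPM (95.8 to 141) in amacrine and 155 CPM (138 to 175) in bipolar barcodes. Pcdhb17 was the beta member with most UMIs in all 4 classes.

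**Figure D1:**
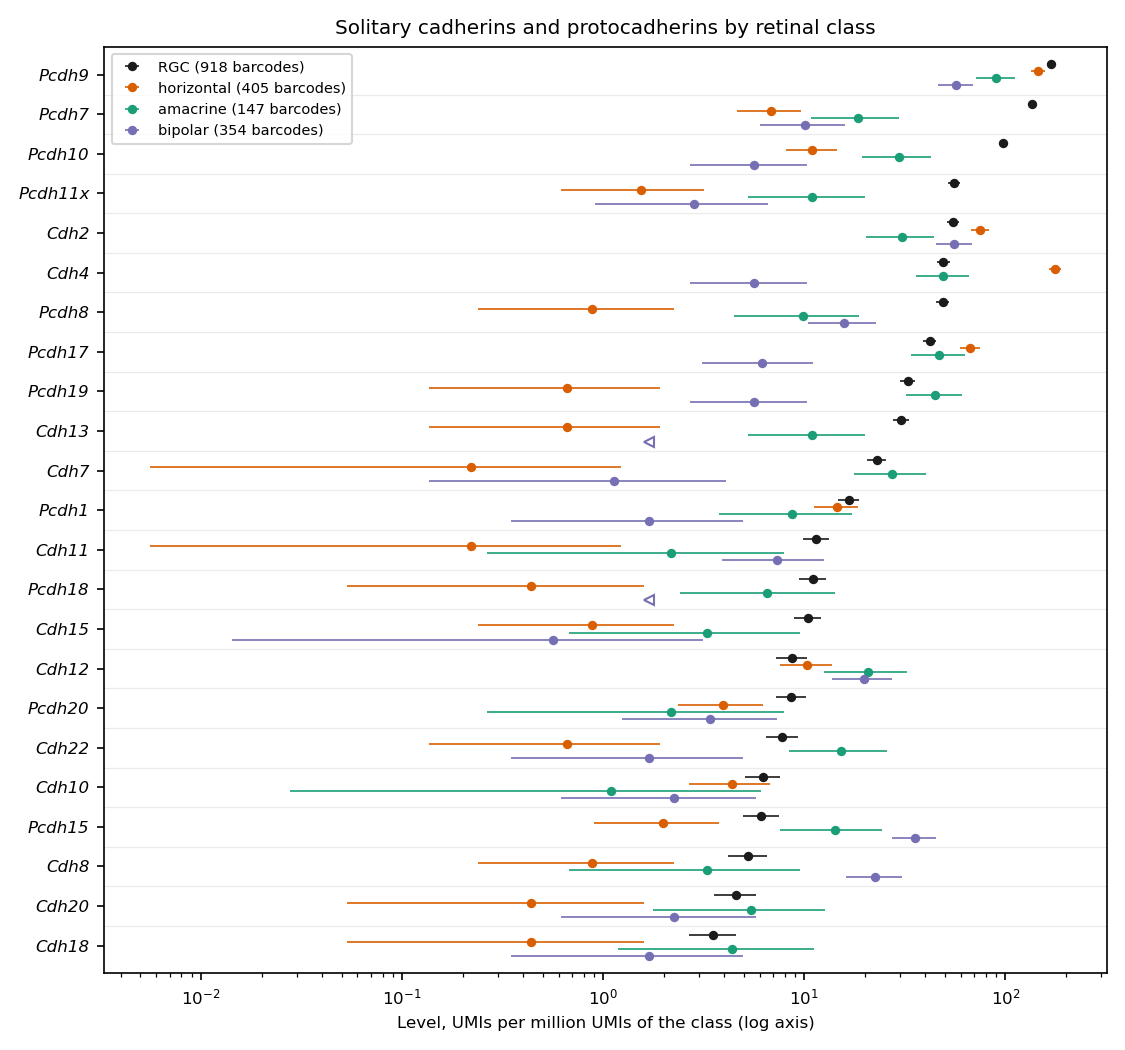
Level of the 23 solitary members with 30 or more UMIs in RGCs, in UMIs per 1e+06 UMIs of the class (CPM) on a log axis, with exact 95% Poisson intervals for counting error. Open triangles mark 0 UMIs, drawn at the level of 3 counts. Pcdh7, Pcdh10, Pcdh11x and Cdh13 stand well to the right in RGCs, while Cdh4 is highest in horizontal barcodes at 177 CPM.

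Against horizontal barcodes, 18 of 47 members with enough UMIs were called higher in RGCs and 3 lower, 21 in all. Of 12309 genes tested 31.6% were called, 21.7% higher and 9.9% lower, and at 100 or more UMIs 15 of 30 members were called, where 27.8% of genes were. The median log2 ratio of the members was 0.41, against 0.15 over all genes. Pcdh7 was at 135 CPM in RGCs and 6.81 CPM in horizontal barcodes (19.8-fold, 13.9 to 29.2). A UMI of it was found in 557 of 918 RGCs and in 28 of 405 horizontal barcodes, with a highest count of 36 in an RGC and 2 in a horizontal barcode. Pcdh11x stood at 55.4 CPM in RGCs and 1.54 CPM in horizontal barcodes (36.0-fold, 17.4 to 89.8). Pcdh10, a protocadherin that binds the WAVE actin regulator through Nckap1, stood at 97.7 CPM in RGCs and 10.99 CPM in horizontal barcodes (8.88-fold, 6.70 to 12.0). Several members were close to absent from horizontal barcodes. Pcdh19, the protocadherin whose mutations cause an X-linked epilepsy in humans, had 509 UMIs in RGCs and 3 in horizontal barcodes (49.6-fold, 16.9 to 241). Cdh13, a cadherin anchored by a lipid in place of a membrane span, had 471 and 3 UMIs, Pcdh8 759 and 4, Cdh7 357 and 1, and Cdh11 178 and 1.

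Cdh4, or R-cadherin, was the solitary member called lower in RGCs than in horizontal barcodes, with 49.2 CPM in RGCs and 177 CPM in horizontal barcodes (3.60-fold lower, 3.26 to 3.98). It was seen in 410 of 918 RGCs and 339 of 405 horizontal barcodes, and thinning to 3000 UMIs per barcode left it in 129 of 918 RGCs and 162 of 405 horizontal barcodes, with 0 of 156 in microglia barcodes. Pcdhb4 and Pcdhb18 were the other two called lower, 2.12-fold and 2.14-fold, and both fell inside the 2-fold limit when CPM was averaged over barcodes (ratios 0.538 and 0.525). The classes differ in mitochondrial share, with a median of 3.94% of UMIs in RGCs against 6.86% in horizontal and 8.44% in bipolar barcodes. Under a maximum of 5%, 34 horizontal barcodes remained, the ratios of Cdh18 (1.42) and Pcdh20 (1.91) came inside 2-fold, and Pcdh15 (0.881) and Pcdhb3 (0.991) turned direction, on 1 to 4 UMIs each in horizontal barcodes. There Pcdh7 was 11.7-fold, Pcdh8 20.5-fold and Cdh13 6.99-fold higher in RGCs, on 5, 1 and 2 UMIs in horizontal barcodes, and the ratio of Pcdhb4 was 0.248. Pcdh11x, Pcdh19, Cdh7, Pcdh18, Cdh11 and Cdh22 had 0 UMIs in those horizontal barcodes, so that they were at least 7.66-fold, 4.61-fold, 2.65-fold, 1.58-fold, 1.42-fold and 1.05-fold higher in RGCs. The part of depth or mitochondrial share in these ratios was not tested.

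Against amacrine barcodes 12 of 46 members were called higher in RGCs and 3 lower, 15 in all. Of 12053 genes tested 22.3% were called, 11.9% higher and 10.4% lower, and at 100 or more UMIs 12 of 28 members were called, where 19% of genes were. Pcdh7 stood at 135 CPM in RGCs and 18.6 CPM in amacrine barcodes (7.26-fold, 4.53 to 12.5), Pcdh11x at 55.4 and 10.9 CPM (5.07-fold, 2.74 to 10.6), and Pcdh8 at 48.8 and 9.83 CPM (4.96-fold, 2.60 to 10.9). Pcdh10 was 3.31-fold and Cdh13 2.77-fold higher in RGCs. Pcdh19 was not called, at 32.7 CPM in RGCs and 44.8 CPM in amacrine barcodes, and after thinning to 3000 UMIs it was seen in 9.04% of RGCs (7.27 to 11.1) and 12.9% of amacrine barcodes (7.96 to 19.4), against 1.92% of microglia barcodes. Cdh7 was likewise not called, at 23.0 CPM in RGCs and 27.3 CPM in amacrine barcodes. Cdh12 was 2.39-fold lower in RGCs (1.40 to 3.88), and its call ended under the 5% mitochondrial maximum (ratio 0.603). Pcdh15, a component of the tip link of hair cells, was 2.33-fold lower (1.19 to 4.17). The intervals of Pcdhb3, Pcdhac2 and Pcdhb8 in this comparison included a ratio of 1.

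Against bipolar barcodes 20 of 46 members were called higher in RGCs and 8 lower, 28 in all. Of 12208 genes tested 38.3% were called, 23.5% higher and 14.8% lower, and at 100 or more UMIs 22 of 31 members were called, where 35.9% of genes were. Every delta protocadherin, 4 of 4 delta-1 and 5 of 5 delta-2, was called higher in RGCs, although Pcdh8, Pcdh9 and Pcdh19 turned direction under the 5% mitochondrial maximum described below. Pcdh10 stood at 97.7 CPM in RGCs and 5.63 CPM in bipolar barcodes (17.3-fold, 9.40 to 36.2), Pcdh7 at 135 and 10.1 CPM (13.3-fold, 8.40 to 22.5) and Pcdh11x at 55.4 and 2.82 CPM (19.7-fold, 8.40 to 60.7). Pcdh17, known from mouse corticobasal ganglia synapses, was 6.77-fold higher (3.76 to 13.6). Cdh13 and Pcdh18 had 0 UMIs in bipolar barcodes and were at least 17.9-fold and at least 6.54-fold higher in RGCs, taking 3 counts over all bipolar barcodes as the floor. Of the classical cadherins, Cdh4 stood at 49.2 CPM in RGCs and 5.63 CPM in bipolar barcodes (8.74-fold, 4.73 to 18.3), and Cdh7 at 23.0 and 1.13 CPM (20.4-fold, 5.598 to 169). Cdh2, or N-cadherin, was not called, with 54.8 CPM in RGCs and 55.8 CPM in bipolar barcodes.

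The members lower in RGCs than in bipolar barcodes were led by Pcdh15, at 6.11 CPM in RGCs and 35.5 CPM in bipolar barcodes (5.81-fold lower, 4.16 to 8.07). It was seen in 81 of 918 RGCs, with at most 3 UMIs, and in 45 of 354 bipolar barcodes, with at most 6. Rod markers, as given above, were also higher in bipolar barcodes, with 4 of 4 detected in both classes, and their part in this difference was not tested. Cdh8, a type II cadherin known from a type of OFF bipolar cell in mouse, stood at 5.27 CPM in RGCs and 22.5 CPM in bipolar barcodes (4.27-fold lower, 2.85 to 6.31). All 3 gamma members were lower in RGCs, Pcdhga12 5.06-fold (3.72 to 6.83), Pcdhgc4 2.45-fold and Pcdhgc5 2.63-fold. Their sum was 19.0 CPM in RGCs and 67.6 CPM in bipolar barcodes. Under the 5% mitochondrial maximum 19 bipolar barcodes remained and 16 members were called. There Pcdh19 (ratio 0.579), Pcdh8 (0.858), Pcdh9 (0.8999), Cdh22 (0.792) and Cdh18 (0.179) turned direction, on 1 to 19 UMIs in bipolar barcodes, and Pcdh11x (1.92) and Cdh12 (0.936) came inside 2-fold. Pcdh7 was 2.44-fold higher in RGCs, and Pcdh10 and Cdh13, with 0 UMIs in those bipolar barcodes, were at least 3.28-fold and at least 1.17-fold higher. Cdh8 (0.106), Pcdhga12 (0.114) and Pcdhgc5 (0.102) had ratios further below 1 than with all bipolar barcodes.

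Among RGCs, the Opn4 set differed in 14 of 44 members, 2 higher and 12 lower. Of 11882 genes tested 12.1% were called, 4.43% higher and 7.68% lower, and at 100 or more UMIs 10 of 27 members were called, where 8.45% of genes were. Pcdh19 was the member highest above the other RGCs, with 110 CPM in Opn4 RGCs and 25.9 CPM in other RGCs (4.25-fold, 3.47 to 5.18). It had a UMI in 53 of 63 Opn4 RGCs (median 2, highest 8) and in 228 of 855 other RGCs (median 0, highest 7). After thinning to 12000 UMIs the shares were 60.0% of Opn4 RGCs (45.9 to 73.0) and 24.8% of RGCs outside all gates (19.997 to 30.2). Cdh12, a type II cadherin, stood at 23.2 CPM in Opn4 RGCs and 7.41 CPM in other RGCs (3.13-fold, 2.00 to 4.76). Of its UMIs in Opn4 RGCs, 23 lay in the 24 barcodes that also passed the Spp1 gate (36.5 CPM).

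The members lower in Opn4 RGCs included 1 of 4 delta-1 protocadherins, Pcdh7, and the delta-2 protocadherins Pcdh8, Pcdh10 and Pcdh18. Pcdh7 stood at 12.8 CPM in Opn4 RGCs and 146 CPM in other RGCs (11.4-fold lower, 6.99 to 19.96), with a UMI in 10 of 63 and 547 of 855 barcodes. Pcdh10 stood at 12.0 CPM in Opn4 RGCs and 105 CPM in other RGCs (8.77-fold lower, 5.30 to 15.7), with a UMI in 9 of 63 and 536 of 855 barcodes. Cdh4 was 6.00-fold lower (3.34 to 12.1), Pcdh8 3.41-fold lower (2.17 to 5.69) and Cdh11 3.03-fold lower (1.27 to 9.44). Pcdh18, Pcdh20, Cdh8 and Pcdhb3 were called lower on 1 or 2 UMIs in Opn4 RGCs, with intervals that left out 1 (for Pcdh18 2.03 to 61.9), while those of Cdh18, Pcdhb12 and Pcdhb19 included 1. When only barcodes that passed the Opn4 gate and no other were set against RGCs that passed none, the calls of Pcdh8 (ratio 0.571), Cdh11 (0.657) and Pcdhb12 (0.526) ended and the ratio of Cdh4 was 0.0355. Without the top barcode of each set Pcdhb12 and Pcdhb19 had 0 UMIs in Opn4 RGCs and were not called. The delta-1 sum came to 379 CPM in Opn4 RGCs and 376 CPM in other RGCs. Within it Pcdh9 stood at 292 CPM in Opn4 RGCs and 166 CPM in RGCs outside all gates.

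**Figure D2:**
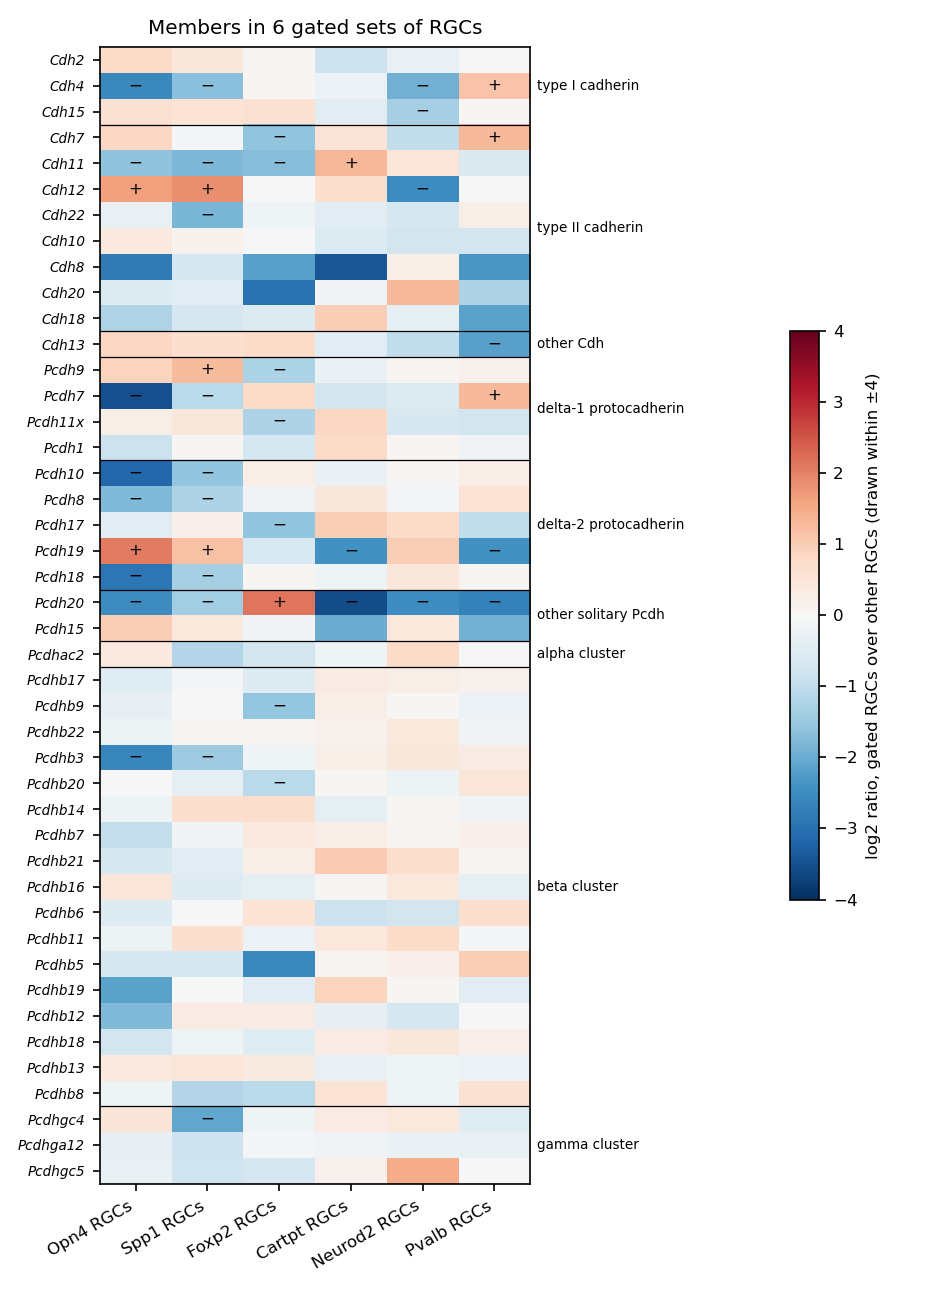
Log2 ratio of CPM in each gated set of RGCs over all other RGCs, for the 44 members with 30 or more UMIs, grouped by family. Plus and minus signs mark ratios past 2-fold for members with 100 or more UMIs, and the Pcdh19 row holds both, higher in Opn4 RGCs (4.25-fold) and lower in Cartpt (5.41-fold) and Pvalb RGCs (5.39-fold).

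The Spp1 set, 24 of whose 32 barcodes are also in the Opn4 set, differed in 15 of 44 members, 3 higher and 12 lower. Over all genes 11.5% were called, 4.06% higher and 7.48% lower, and at 100 or more UMIs 13 of 27 members were called, where 7.8% of genes were. Pcdh9 stood at 378 CPM in Spp1 RGCs and 157 CPM in other RGCs (2.41-fold, 2.14 to 2.71). It was found in 32 of 32 Spp1 RGCs with a median of 9 UMIs, and in 558 of 886 other RGCs with a median of 1. Cdh12 was 3.61-fold higher (2.22 to 5.65) and Pcdh19 2.27-fold higher (1.71 to 2.97). Of the 24 Cdh12 UMIs in Spp1 RGCs, 23 lay in barcodes that are also in the Opn4 set, so the 2 Cdh12 calls share most of their UMIs. Pcdh10 (2.97-fold), Cdh4 (3.22-fold), Pcdh8 (2.33-fold), Pcdh7 (2.11-fold), Cdh11 (3.496-fold) and Pcdhgc4 (4.22-fold) were lower in Spp1 RGCs, with intervals that left out 1. Cdh11 had a UMI in 3 and Pcdhgc4, a gamma gene with a shared end, in 2 of 32 Spp1 RGCs, at most 1 UMI per barcode. With the gate doubled to 6 UMIs the ratios of Pcdh10 (0.0982), Pcdh8 (0.141) and Pcdh7 (0.328) were lower still. Pcdh18, Pcdh20, Cdh22, Pcdhac2, Pcdhb3 and Pcdhb8 were also called lower, with intervals that included 1. Only 1 barcode passed the Spp1 gate and no other, so this set has no reading of its own apart from the others.

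Splits of the 2 overlapping sets, chosen after the data were seen, gave different levels on either side of the Spp1 gate and of the Opn4 gate. The 24 RGCs with both genes had 404 CPM of Pcdh9, against 177 CPM in the 39 Opn4 RGCs without Spp1 (2.28-fold, 1.82 to 2.88), and 15.9 CPM of Cdh7, against 61.3 CPM (3.86-fold lower, 1.89 to 8.70). The 8 Spp1 RGCs without Opn4 had 197 CPM of Pcdh7, against 14.3 CPM in the 24 with both (13.8-fold, 6.71 to 31.98), 113 CPM of Pcdh10, against 3.17 CPM, and 8.04 CPM of Pcdh19, against 93.5 CPM. Pcdh10 had a UMI in 6 of those 8 barcodes and in 2 of the 24, and Pcdh19 in 1 of the 8 and in 22 of the 24. In these 2 splits 7.77% and 9.61% of all genes with 30 or more UMIs were called, and with 8 barcodes the second rests on few cells. Of Spp1 RGCs 8 also passed the Pvalb gate, and of Opn4 RGCs only 1 did. Most of the 8 Spp1 RGCs without Opn4 were therefore Pvalb RGCs, a set with 257 CPM of Pcdh7 and little Pcdh19 (given below). The part of the Pvalb gate in the second split was not tested.

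Foxp2 RGCs differed in 12 of 44 members, 1 higher and 11 lower. Over all genes 7.52% were called, 1.5% higher and 6.03% lower, and at 100 or more UMIs 8 of 27 members were called, where 4.29% of genes were. The one higher was Pcdh20, with 28.3 CPM in Foxp2 RGCs and 6.37 CPM in other RGCs (4.45-fold, 3.04 to 6.43), seen in 28 of 96 Foxp2 RGCs and 62 of 822 other RGCs. At 12000 UMIs it was seen in 23.0% of Foxp2 RGCs (14.6 to 33.2), in 12.2% of RGCs outside all gates, and in 0 of 55 Opn4, 0 of 32 Spp1 and 0 of 125 Pvalb RGCs. Taking 3 counts as the floor, these allow shares of cells with a UMI at this depth of up to 5.45%, 9.38% and 2.40%. Before thinning 2 of 63 Opn4, 2 of 32 Spp1 and 4 of 133 Pvalb RGCs held a Pcdh20 UMI. For barcodes that pass the Foxp2 gate only, against RGCs outside all gates, its ratio was 2.49. Pcdh9 was lower, at 75.6 CPM in Foxp2 RGCs and 180 CPM in other RGCs (2.38-fold, 1.98 to 2.88), with a UMI in 28 of 96 and 562 of 822 barcodes. Pcdh17 was 2.98-fold (1.98 to 4.69), Cdh7 3.01-fold (1.74 to 5.71), Cdh11 3.26-fold (1.47 to 9.01), Pcdhb9 2.93-fold (1.46 to 6.87) and Pcdh11x 2.34-fold lower (1.70 to 3.30). With the gate doubled to 4 UMIs the ratios of Pcdh9 (0.515) and Pcdh11x (0.549) came inside 2-fold and Cdh20 had 0 UMIs in Foxp2 RGCs, too few for a call. Cdh20, Cdh8, Pcdhb5 and Pcdhb8 were called lower on 1 or 2 UMIs in Foxp2 RGCs and Pcdhb20 on 7, and Pcdhb8 and Pcdhb20 came inside 2-fold under at least 1 other setting. Pcdh7 was not called at 2-fold but was detected in 88.5% of Foxp2 RGCs (79.9 to 94.3) and 60.9% of RGCs outside all gates (55.0 to 66.5) at 12000 UMIs.

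Cartpt RGCs differed in 6 of 44 members, 2 higher and 4 lower. Over all genes 5.13% were called, 1.11% higher and 4.01% lower, and at 100 or more UMIs 3 of 27 members were called, where 2.43% of genes were. Cdh11, a type II cadherin, stood at 21.9 CPM in Cartpt RGCs and 8.64 CPM in other RGCs (2.54-fold, 1.85 to 3.46), seen in 57 of 164 and 97 of 754 barcodes. Pcdhb21 was 2.02-fold higher (1.28 to 3.14), and its ratio was 1.49 for barcodes that passed 1 gate only; this is the beta gene with a shared end. Pcdh19 stood at 7.31 CPM in Cartpt RGCs and 39.5 CPM in other RGCs (5.41-fold lower, 3.59 to 8.52), with a UMI in 20 of 164 and 261 of 754 barcodes. Pcdh20 (11.7-fold), Cdh8 (10.7-fold) and Pcdh15 (3.97-fold) were lower on 3, 2 and 6 UMIs in Cartpt RGCs, with intervals of 3.91 to 57.4, 2.87 to 89.9 and 1.75 to 11.1.

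Neurod2 RGCs differed in 6 of 44 members, 2 higher and 4 lower. Over all genes 7.71% were called, 1.78% higher and 5.92% lower, and at 100 or more UMIs 4 of 27 members were called, where 4.14% of genes were. Cdh4 stood at 14.1 CPM in Neurod2 RGCs and 53.8 CPM in other RGCs (3.83-fold lower, 2.57 to 5.95), with a UMI in 23 of 101 and 387 of 817 barcodes. Cdh12 was 5.68-fold lower (1.90 to 27.9), Pcdh20 5.64-fold lower (1.89 to 27.7) and Cdh15, or M-cadherin, 2.48-fold lower (1.23 to 5.86), with a ratio of 0.511 in barcodes that passed 1 gate only. Cdh20 was 2.44-fold higher (1.33 to 4.27), and 1.95-fold without the barcode that held most of its UMIs in each set. Leaving out the top barcode of each set gave 10 of 44 members called, with Cdh7, Cdh13, Cdh18, Pcdhb8 and Pcdhb12 added as lower, and barcodes that passed 1 gate only gave 10 of 34. Pcdhgc5 was 2.82-fold higher (1.08 to 6.57) and 1.07-fold in barcodes that passed 1 gate only.

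The counts for the Cartpt and Neurod2 sets leave out differences between them and the 35 RGCs that passed both gates, described after the data were seen. Pcdh11x was at 5.81 CPM in RGCs with both genes, seen in 2 of 35, against 105 CPM in the 129 Cartpt RGCs without Neurod2, seen in 90 of 129 (18.1-fold lower, 6.99 to 66.9). Pcdh8 was at 113 CPM in RGCs with both, against 48.9 CPM in Cartpt RGCs without Neurod2 (2.31-fold, 1.72 to 3.09). Cdh12 had 0 UMIs in the RGCs with both and 40 in Cartpt RGCs without Neurod2, at least 3.54-fold lower. Set against those with both, the 66 Neurod2 RGCs without Cartpt had 3.67 CPM of Pcdh8, against 113 CPM (30.8-fold lower, 11.6 to 116), 90.0 CPM of Pcdh19, against 7.26 CPM (12.4-fold, 5.13 to 39.0), and 56.9 CPM of Pcdh11x, against 5.81 CPM (9.80-fold, 3.64 to 37.1).
At equal depth of 12000 UMIs, Pcdh8 was seen in 5.45% of Neurod2 RGCs without Cartpt (1.14 to 15.1), 73.3% of those with both (54.1 to 87.7) and 36.1% of Cartpt RGCs without Neurod2 (27.5 to 45.4). Pcdh19 was seen in 69.1%, 6.67% and 10.1% of the same sets, and Pcdh11x in 21.8%, 3.33% and 58.0%. The RGCs with both genes were low in Pcdh19, as were Cartpt RGCs without Neurod2, and lower in Pcdh11x than both other sets. Their median depth, 18759 UMIs, lay beside that of the Cartpt RGCs without Neurod2 (18974 UMIs) and above that of the Neurod2 RGCs without Cartpt (14822.5 UMIs). In the splits by Neurod2 and by Cartpt, 7.71% and 6.98% of all genes with 30 or more UMIs were called.

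**Figure D3:**
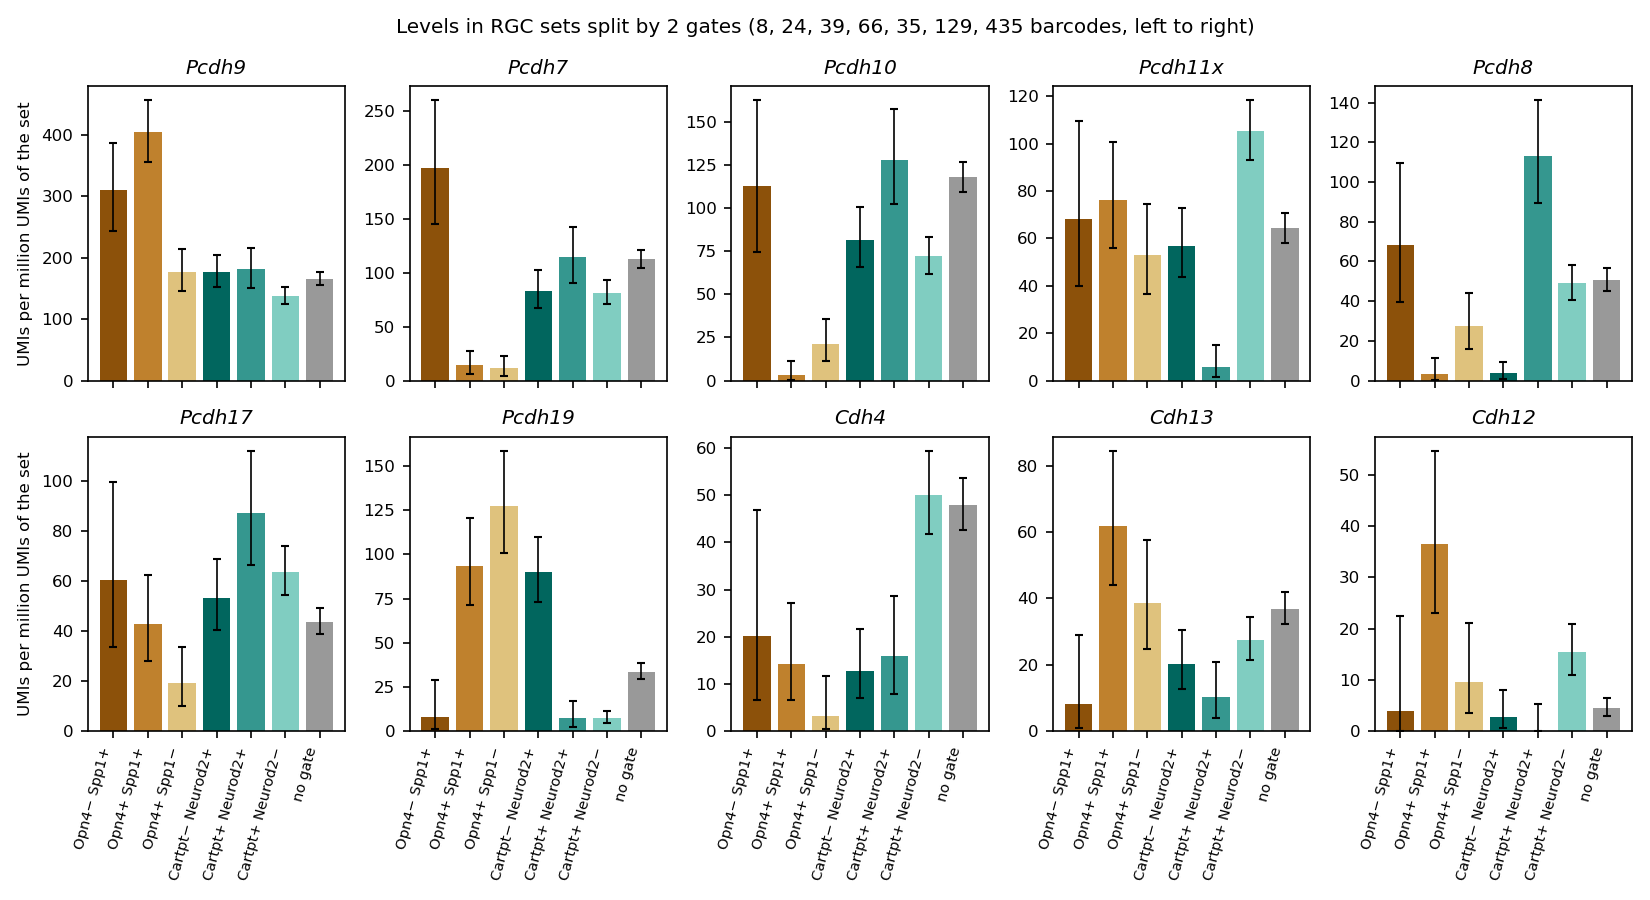
CPM of 10 members in RGC sets split by the Opn4 and Spp1 gates and by the Cartpt and Neurod2 gates, with RGCs outside all 6 gates last; bars start at 0 and lines are exact 95% Poisson intervals. Pcdh7 and Pcdh10 are low on both sides of the Spp1 gate within Opn4 RGCs, and Pcdh8, Pcdh11x and Pcdh19 separate the 3 Cartpt and Neurod2 sets.

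Pvalb RGCs differed in 10 of 44 members, 3 higher and 7 lower. Over all genes 5.71% were called, 1.59% higher and 4.12% lower, and at 100 or more UMIs 6 of 27 members were called, where 2.79% of genes were. Pcdh7 stood at 257 CPM in Pvalb RGCs and 104 CPM in other RGCs (2.48-fold, 2.26 to 2.70). It had a UMI in 111 of 133 Pvalb RGCs (median 5, highest 36) and in 446 of 785 other RGCs (median 1, highest 22). Cdh7 was 2.44-fold (1.96 to 3.04) and Cdh4 2.18-fold higher (1.88 to 2.54), and doubling the gate to 30 UMIs brought both inside 2-fold, at 1.47 and 1.70. The ratio of Cdh4 was 1.87 under the 5% mitochondrial maximum. Pcdh19 stood at 7.28 CPM in Pvalb RGCs and 39.2 CPM in other RGCs (5.39-fold lower, 3.55 to 8.58), seen in 12 of 133 and 269 of 785 barcodes. Cdh13 stood at 7.91 CPM in Pvalb RGCs and 36.0 CPM in other RGCs (4.55-fold lower, 3.04 to 7.10). Pcdh20, Cdh8, Pcdh15, Cdh18 and Cdh20 were lower on 3 to 7 UMIs in Pvalb RGCs, by 6.58-fold, 4.97-fold, 3.78-fold, 4.42-fold and 2.33-fold.
Horizontal markers, whose barcodes are rich in Cdh4, summed to 708 CPM in Pvalb RGCs and 340 CPM in RGCs outside all gates, with 6 of 6 detected. The difference lay mostly in Calb1 (473 and 141 CPM) and Sept4 (203 and 152 CPM). Prox1 stood at 7.60 and 5.99 CPM, and Lhx1, held to at most 1 UMI by the RGC gate, at 0.95 and 0.81 CPM. Onecut1 stood at 0.9495 and 3.88 CPM and Onecut2 at 22.5 and 36.7 CPM. The part of horizontal RNA in the Cdh4 level was not tested.

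Read across sets rather than within them, the order of levels differed from member to member. Pcdh19 ran from 110 CPM in Opn4 through 69.4 CPM in Spp1, 57.9 CPM in Neurod2 and 22.0 CPM in Foxp2 RGCs to 7.31 CPM in Cartpt and 7.28 CPM in Pvalb RGCs, the last pair being within counting error of each other. Pcdh7 ran from 257 CPM in Pvalb through 213 CPM in Foxp2, 95.6 CPM in Neurod2, 88.6 CPM in Cartpt and 66.0 CPM in Spp1 to 12.8 CPM in Opn4 RGCs. Cdh2 ranged less, from 87.1 CPM in Opn4 to 33.8 CPM in Cartpt RGCs, and was called in no set. Of the 17 beta members with enough UMIs, 3 were called in Opn4 (17.6%, where 12.1% of all genes were), 2 in Spp1 (11.8% and 11.5%), 4 in Foxp2 (23.5% and 7.52%), 1 in Cartpt (5.88% and 5.13%) and 0 in Neurod2 and Pvalb RGCs (7.71% and 5.71% of all genes). All calls but that in Cartpt RGCs were lower, and those of Pcdhb8, Pcdhb12 and Pcdhb19, and of Pcdhb3 in Spp1 RGCs, had intervals that included 1. The beta sum ranged from 80.7 CPM in Opn4 RGCs (118 CPM in other RGCs) to 129 CPM in Neurod2 RGCs (113 CPM in other RGCs).

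Single RGCs carried mixtures of members. Thinned to 12000 UMIs, 729 RGCs held a median of 7 of the 52 members with a UMI (range 2 to 15), and 8 before thinning over all 918. The 729 RGCs held 726 distinct sets of detected members, and 652 distinct sets over the 25 solitary members, though at this depth a member without a UMI may still be expressed. A delta-1 protocadherin was seen in 92.2% of RGCs and a delta-2 protocadherin in 84.5%, and 57.2% and 50.5% held 2 or more of each. A beta member was seen in 69.8%, with 6 as the most in 1 RGC. At 3000 UMIs the median was 2 members in RGCs, 2 in horizontal, 1 in amacrine and 1 in bipolar barcodes, and 0 in microglia barcodes, of which 83.3% held none. In another draw 81.4% of the 156 held none, and 87.1% of the 140 that passed no other class gate. Unthinned medians were 8, 5, 2, 2 and 0.

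**Figure D4:**
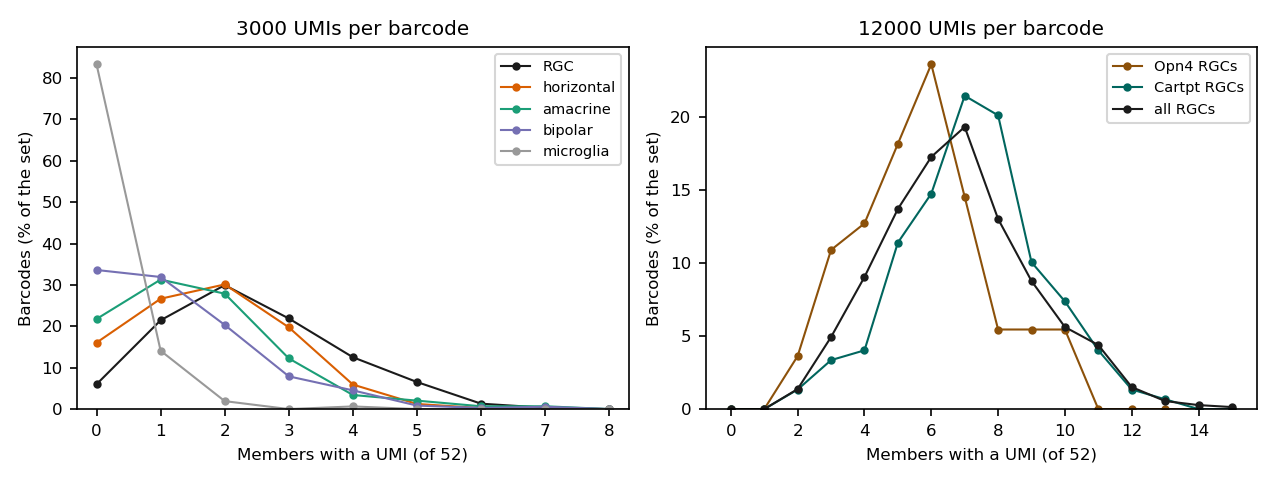
Share of barcodes by number of members with a UMI, at 3000 UMIs per barcode for classes (left) and 12000 UMIs for RGC sets (right). Microglia barcodes, with 83.3% at 0, serve as a background, 16 of the 156 being counted in another class too, and Opn4 RGCs have a median of 6 members, against 7 in all RGCs.

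Among the 10 members with most UMIs in RGCs, Pcdh19 was seen at 12000 UMIs together with Pcdh8 in 32 of 729 RGCs (4.39%, where the product of both shares is 8.12%), with Cdh4 in 37 (5.08% and 9.09%) and with Pcdh7 in 60 (8.23% and 13.8%). It was seen with Pcdh11x in 81 (11.1% and 7.74%) and with Pcdh9 in 138 (18.9% and 14.4%). Pcdh19 was found in 14.1% of RGCs with a Pcdh7 UMI and in 37.0% of those without. These are descriptions over cells of 1 pooled table.

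Genes that act with the family were counted by the same rule. Of 8 catenins and related armadillo proteins with enough UMIs, 1 was called in Opn4, 1 in Spp1, 1 in Pvalb and 0 in the other sets. That is 12.5% of the list in each of the 3, where 12.1%, 11.5% and 5.71% of all genes were called. Jup, or plakoglobin, stood at 34.4 CPM in Opn4 RGCs and 103 CPM in other RGCs (2.99-fold lower, 2.21 to 4.15), and was the one in Spp1 RGCs too (2.05-fold lower). Of 8 further cadherin superfamily genes, 2 were called in Opn4, 2 in Neurod2, 1 each in Spp1, Cartpt and Pvalb and 0 in Foxp2 RGCs, which is 25%, 25%, 12.5% and 0% of the list. All genes were called at 12.1% in Opn4, 7.71% in Neurod2, 11.5% in Spp1, 5.13% in Cartpt, 5.71% in Pvalb and 7.52% in Foxp2 RGCs. Cdhr1, a cadherin known from photoreceptors, stood at 36.8 CPM in Opn4 RGCs and 10.6 CPM in other RGCs (3.48-fold, 2.45 to 4.87), while it was lower in Spp1 (5.84-fold), Cartpt (3.03-fold) and Pvalb RGCs (3.09-fold). Of its 46 UMIs in Opn4 RGCs, 44 lay in those without Spp1 (70.9 CPM) and 2 in those with both (3.17 CPM). Microglia barcodes, the background for free RNA, held 18.6 CPM of Cdhr1, above the 12.7 CPM of all RGCs. The part of free RNA in the lower calls was not tested. The calsyntenin Clstn2 stood at 43.3 CPM in Neurod2 RGCs and 110 CPM in other RGCs (2.54-fold lower, 2.02 to 3.23). Of 12 genes for protocadherin partners or promoter choice, 1, Ptk2 in Neurod2 RGCs, was called in any set (8.33% of the list there, where 7.71% of all genes were). Against horizontal barcodes 4 of 8 catenins were called higher in RGCs and 3 lower, where 21.7% of all genes were called higher and 9.9% lower, with Jup at 97.2 CPM in RGCs and 3.96 CPM in horizontal barcodes (24.6-fold, 15.5 to 41.6), and 15.7-fold higher than in bipolar barcodes, while Arvcf was 4.04-fold and Ctnna2 2.71-fold lower in RGCs than in horizontal barcodes.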

How the data were processed

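Sorted single cells were sequenced with the 10x Chromium 3′ V2 kit, per the labels' protocols; Cell Ranger (no version), Seurat 2.2 and mm10 are named in the submitters' processing notes, with barcode calling unstated there. The authors deposited counts, meaning whole UMIs for each gene and barcode with no normalization, 31361961 over 3237 barcodes (3198 to 53709 each, median 7674). No barcode is tied to a retina, so the table is 1 sample and the planned edgeR test per retina was not run. Barcodes with 500 or more genes, under 10% mitochondrial UMIs and no Scrublet doublet call (scanpy 1.11.5, seed 0; 63, 2.33%) were kept, 2636 in all; 672 passed no class gate and 16 passed 2. The other class gates used Slc17a6 at 0 with Lhx1 for horizontal and with marker sums of 3 or more for amacrine and bipolar barcodes. Summed UMIs were scaled to CPM, with Poisson, conditional binomial or Clopper-Pearson intervals at 95%. The ratio and its interval were tested on simulated Poisson counts, the model the interval assumes, so spread between barcodes was not covered. The 2-fold call was not tested. Members were named if past 2-fold, among the 10 with most UMIs, or highest of a family in a class. Members and lists were chosen with earlier results of these data known. Tools were scipy 1.17.1, numpy 2.4.6, pandas 2.3.3 and matplotlib 3.10.9 under Python 3.11.15. Splits by 2 gates were chosen after seeing the data.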

Additional observations from a re-analysis of the deposited data

How the results depend on the processing

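No paired analysis was possible because no barcode is tied to a retina. Over 127 named ratios and 923 alternative values, 916 kept their direction and 7 turned, all under a mitochondrial maximum of 5%. Against horizontal barcodes these were Pcdh15 (0.881) and Pcdhb3 (0.991), and against bipolar barcodes Cdh22 (0.792), Pcdh19 (0.579), Pcdh8 (0.858), Pcdh9 (0.8999) and Cdh18 (0.179). These rest on 1 to 19 UMIs in the comparison class. Of 39 values outside their interval in the same direction, 8 are bounds against 0 UMIs. That maximum leaves 34 horizontal and 19 bipolar barcodes, and the counts of members called were 13 against horizontal and 16 against bipolar barcodes, from 21 and 28. A minimum of 100 UMIs, which leaves fewer members, gave 3 in Cartpt and 6 in Pvalb RGCs, from 6 and 10. Leaving out the top barcode of each set gave 10 in Neurod2 RGCs, from 6. Barcodes that pass 1 gate only gave 10 in Neurod2 RGCs and 3 in Spp1 RGCs, where that set is 1 barcode, from 6 and 15. For the last 2 Neurod2 values the cause was not tested. At 6000 UMIs per RGC the median number of members was 4 in place of 7, and the share of RGCs with Pcdh9 44.6% in place of 61.2%, as fewer UMIs give fewer detections. No other alternative moved a count of members by over 1.5 times. With 1 pooled table, the spread between retinas is unknown, and counts of 1 to 7 UMIs in the small sets limit the low members most.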
